A study of Mus musculus with 6 samples.

Results

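The genes examined here encode the NF-κB transcription factor subunits and the IκB proteins that bind them. They were found in the count table by mouse symbol, mapped from the Ensembl identifier, and all 10 named genes had exactly 1 row among the 55401 genes listed. They fall into 3 canonical subunits (Nfkb1, Rel and Rela), 2 non-canonical subunits (Nfkb2 and Relb), 3 classical IκB genes (Nfkbia, Nfkbib and Nfkbie) and 2 genes of nuclear IκB proteins (Nfkbid and Bcl3). Each of the 10 passed the filter on low counts. RNA was sequenced from 6 mouse cultures labelled as T cells. The 3 control cultures received supernatant of macrophages left without stimulus, and the 3 NFL cultures received supernatant of macrophages exposed to neurofilament light chain (NF-L), a protein of the axonal cytoskeleton. The design text names purified CD8+ T cells, taken from spleen with CD8a beads, and macrophages grown from CD11b-selected spleen cells with M-CSF at 50 ng/mL over 7 days. The stimulus was 5 μg/mL NF-L from freeze-thawed sciatic nerve for 24 h, and the supernatant was used at 50% in RPMI-1640 with 2% serum. All 6 cultures thus received macrophage supernatant, and there was no group without it. Control supernatant came from macrophages without the nerve preparation. NF-L, other components of that preparation and stimulus carried over with the supernatant therefore cannot be told apart. NFL is used below as the name of the group only. Strain, sex and age of the animals are not given in the labels used here, nor whether the 3 cultures of a group came from separate animals, so p-values measure the spread between these cultures, which may be technical.

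NF-κB acts as a dimer of related proteins. In the canonical arm, p50, cut from the product of Nfkb1, pairs with RelA or c-Rel and is held in the cytoplasm by IκB proteins until these are phosphorylated and degraded. In the non-canonical arm, signals from a subset of TNF family receptors cause the Nfkb2 precursor to be processed to p52, which pairs with RelB. Several of these genes, among them those for IκBα, RelB and the Nfkb2 precursor, are themselves targets of NF-κB, which makes them part of the feedback that shapes the response in T cells.

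Libraries held 15843045 to 24639756 counts, and a floor of 3 counts corresponded to 0.122 to 0.189 CPM (counts per 1000000 counts of the library, with TMM factors for the members and without them for marker genes). No library was a copy of another, since chi-square per degree of freedom was 1.88 to 3.43 within groups and 4.83 to 5.40 between them. The labelled cell type was checked against 9 T-cell markers, of which 8 were above the floor and Cd2 had no count in any library. Cd3e had a median of 53.5 CPM, Cd4 25.9 CPM, Cd8a 3.90 CPM and Cd8b1 1.27 CPM, so RNA of the CD8 chains was scarce and Cd4 RNA exceeded it. Thy1 had a median of 1641 CPM and Cd247 44.85 CPM, but Cd3g had 7.67 CPM and Cd3d 4.14 CPM. These RNA levels do not bear out the label of purified CD8+ T cells, and the identity of the cells was not tested further. In bulk RNA, fewer cells of a type and less RNA per cell cannot be told apart. Of the 7 macrophage markers 2 exceeded the floor in any library (Cd68 and Adgre1), with a summed level of 24.7 to 27.4 CPM in control and 19.1 to 23.3 CPM in NFL libraries, while C1qa, C1qb and Cd14 had no count. B-cell markers summed to 10.6 to 12.4 CPM and 9.94 to 11.97 CPM, with 2 of 5 above the floor and Ms4a1 and Ighm at 0. Dendritic-cell markers summed to 1.87 to 2.97 CPM and 1.12 to 2.84 CPM (3 of 4 above the floor, Flt3 at 0), and natural killer markers to 29.9 to 33.1 CPM and 21.9 to 22.5 CPM (Klrb1c above the floor, Ncr1 at 0). The macrophage and natural killer sums were lower in each NFL library than in any control library, and the other sums overlapped. Cd68 made up nearly all of the macrophage sum, since Adgre1 was at most 0.203 CPM and Lyz2 at most 0.116 CPM. The natural killer sum was Klrb1c alone. Klrb1c had a log2 fold change of -0.51 and Cd68 of -0.26 (edgeR adjusted p = 2.4e-06 and 0.0494). Among the T-cell markers only Cd3e passed the test, with -0.28 (edgeR adjusted p = 5.7e-04). The other T-cell markers above the floor had log2 fold changes from -0.40 for Cd8b1 to 0.17 for Cd3d, and Thy1, the most abundant, had -0.05. The part of these shifts in the results below was not tested.

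Promoter windows, from 250 bases before the start of a transcript to 50 after it, were taken from RefSeq (GRCm38.p6) and were found for 8 of the 10 genes. Relb and Nfkb1 had no window. The upstream 250 bases of 4 genes are printed 5′ to 3′ on the strand of the gene, because 2 of these genes rose and 2 did not pass the test. Capitals mark bases covered by a match to the κB consensus motif on either strand, and position -1 is the last base before the start. The motif was GGG, a purine, any base, A or T, 2 pyrimidines and CC.
Nfkbia, chr12:55492648-55492897, minus strand: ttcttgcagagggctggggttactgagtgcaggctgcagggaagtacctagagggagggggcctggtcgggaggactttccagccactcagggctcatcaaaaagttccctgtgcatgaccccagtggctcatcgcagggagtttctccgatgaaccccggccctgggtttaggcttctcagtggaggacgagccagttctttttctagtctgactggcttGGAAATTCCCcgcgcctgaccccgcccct
Nfkb2, first of 3 starts, chr19:46304487-46304736, plus strand: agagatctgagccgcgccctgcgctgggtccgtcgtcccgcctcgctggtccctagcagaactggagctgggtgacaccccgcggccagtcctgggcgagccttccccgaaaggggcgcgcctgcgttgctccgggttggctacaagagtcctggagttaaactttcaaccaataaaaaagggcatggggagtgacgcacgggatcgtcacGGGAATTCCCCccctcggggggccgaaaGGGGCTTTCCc
Rel, chr11:23770970-23771219, minus strand: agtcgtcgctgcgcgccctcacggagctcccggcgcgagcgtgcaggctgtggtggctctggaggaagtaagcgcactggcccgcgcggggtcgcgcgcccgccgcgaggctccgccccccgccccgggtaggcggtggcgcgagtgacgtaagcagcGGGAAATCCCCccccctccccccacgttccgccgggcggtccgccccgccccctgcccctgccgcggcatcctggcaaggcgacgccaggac
Rela, chr19:5637291-5637540, plus strand: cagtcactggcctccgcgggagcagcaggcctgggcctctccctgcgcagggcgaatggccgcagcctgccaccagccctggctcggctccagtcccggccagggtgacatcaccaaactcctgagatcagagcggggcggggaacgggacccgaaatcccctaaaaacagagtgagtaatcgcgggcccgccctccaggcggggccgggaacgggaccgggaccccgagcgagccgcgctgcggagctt

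A κB match lay at position -29 in Nfkbia, at -39, -38 and -11 in the first window of Nfkb2 and at -92 and -91 in Rel, where matches on both strands overlapped. Rela and Nfkbib had none. The other starts of Nfkb2 had matches at -236 and 11 and at -225. Nfkbie had a match at -106, Bcl3 had one that began at base 3 of the transcript, and Nfkbid had matches at -226 and -181 in the second of its 3 windows. In all, 6 of the 8 genes with a window held the κB consensus, compared with 5.14% of 27018 genes in the RefSeq table. A gene counted if any of its windows matched, and Nfkb2 and Nfkbid had 3 windows each. Of all 32841 windows, 4.51% matched. Among the textbook NF-κB targets listed below, 10 of the 28 with a window held the consensus. The looser pattern GGG, any 5 bases, CC was found in 7 of the 8 and in 53.5% of all genes. Genes with a match included Nfkbia and Nfkb2, which rose, and Rel, Nfkbie, Nfkbid and Bcl3, which did not pass the test.

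With NFL supernatant, 4 of the 10 genes were higher at an edgeR adjusted p-value under 0.05 and none was lower. These were Relb, Nfkbia, Nfkb2 and Nfkbib. Over all 14082 genes tested, 7.00% passed the same threshold (986 genes, 489 higher and 497 lower) and 3.47% did so with a higher level. With library size in place of TMM the split was 372 higher and 600 lower, and without NFL replicate 3, 508 genes passed. Among the 10535 genes within the members' range of mean expression, 4.87% passed. The median log2 fold change was 0.39 over the 10 genes and 0.00 over all genes tested. The 3 NFL libraries lay above the 3 control libraries for 8 of the 10 genes, and for 11.5% of all genes tested. The groups did not overlap, in either direction, for 22.7% of all genes tested.

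**Figure D1:**
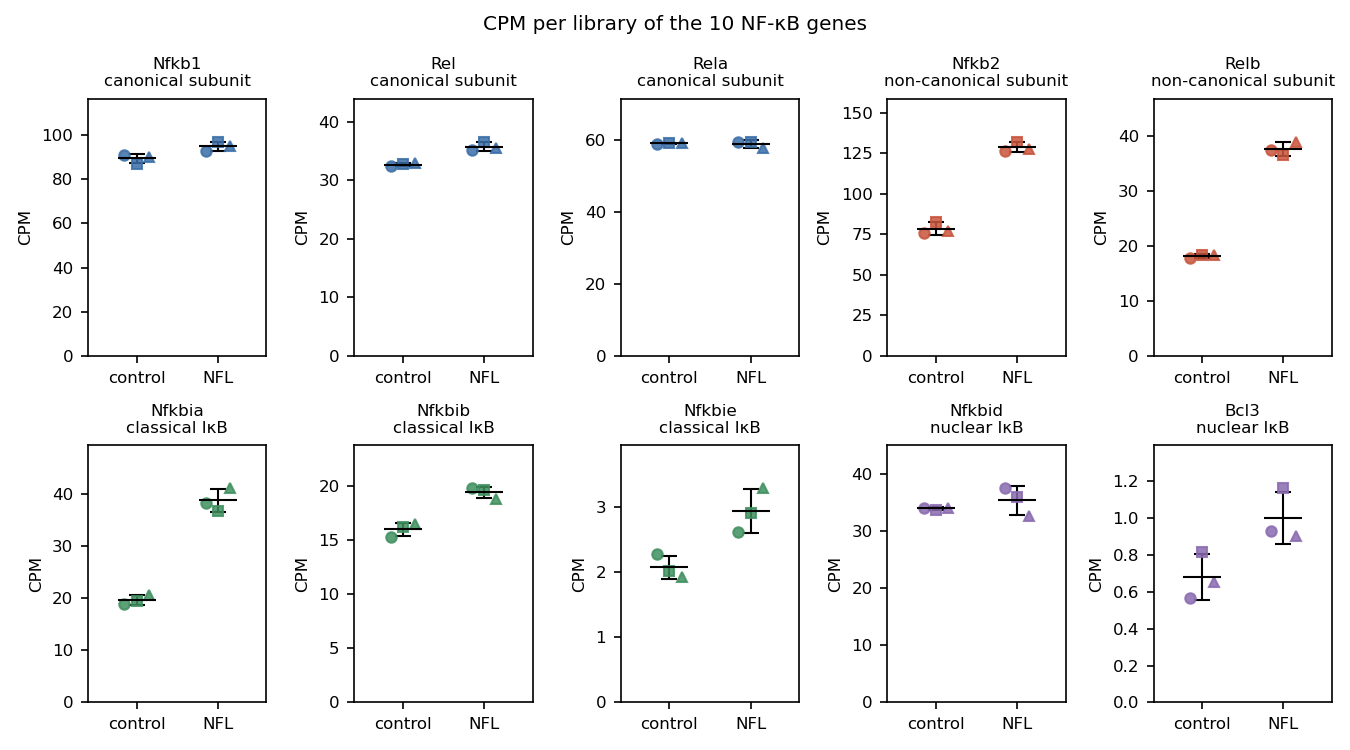
CPM (TMM-scaled) of the 10 genes in control and NFL libraries. Points are libraries (circle, square and triangle for replicates 1 to 3), horizontal lines are means and bars are SD (n = 3), and each axis starts at 0. Relb and Nfkbia about doubled, from means of 18.2 and 19.6 CPM to 37.7 and 38.7 CPM, while Rela stayed between 57.6 and 59.4 CPM.

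The non-canonical subunits rose. Relb (ENSMUSG00000002983.17), whose product RelB carries the activation domain of the non-canonical dimer, had 17.9, 18.45 and 18.3 CPM in the control libraries and 37.5, 36.6 and 39.0 CPM in the NFL libraries. The groups did not overlap, and the distance between them was many times the spread within them. The fold change was 2.07 (95% interval 1.87 to 2.30), and Relb was number 9 of 14082 genes by p-value (edgeR adjusted p = 6.1e-16). Nfkb2 (ENSMUSG00000025225.15), whose product p100 is both the precursor of p52 and an inhibitor of RelB, had 75.5, 82.8 and 77.0 CPM in control and 126, 132 and 128 CPM in NFL libraries. Again no library of one group reached the other. The fold change was 1.65 (95% interval 1.55 to 1.75), number 3 of all genes by p-value (edgeR adjusted p = 1.1e-18). Exons of Psd on the opposite strand share 6.52% of the exonic bases of Nfkb2, and those of the transcript AC114539.1 share 11.58%. Psd was itself higher by a log2 fold change of 0.62 (edgeR adjusted p = 2.2e-07), and AC114539.1 had 0.25 (edgeR adjusted p = 0.0808). Use of strand in counting is not given in the sources used here, so reads of the overlapping genes cannot be told apart where they overlap. Relb overlapped no other annotated gene.

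None of the canonical subunits passed the test. Rela (ENSMUSG00000024927.8), the main activating subunit of the canonical dimer, had 58.9, 59.05 and 58.95 CPM in control and 59.3, 59.4 and 57.6 CPM in NFL libraries. The control libraries fell inside the range of the NFL libraries. Its fold change was 0.997, with a 95% interval of 0.927 to 1.07 (edgeR adjusted p = 0.979). Nfkb1 (ENSMUSG00000028163.17) had 91.1, 87.0 and 90.3 CPM in control and 92.8, 97.0 and 94.8 CPM in NFL libraries. Rel (ENSMUSG00000020275.9), which encodes the c-Rel subunit prominent in activated lymphocytes, had 32.4, 32.8 and 32.9 CPM in control and 35.3, 36.6 and 35.5 CPM in NFL libraries. For both genes the groups were separate but close together, with fold changes of 1.06 for Nfkb1 (95% interval 0.997 to 1.13, edgeR adjusted p = 0.290) and 1.10 for Rel (0.9985 to 1.201, edgeR adjusted p = 0.272). These intervals exclude a rise of the size seen for Relb or Nfkb2, whose lower bounds were 1.87 and 1.55.

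**Figure D2:**
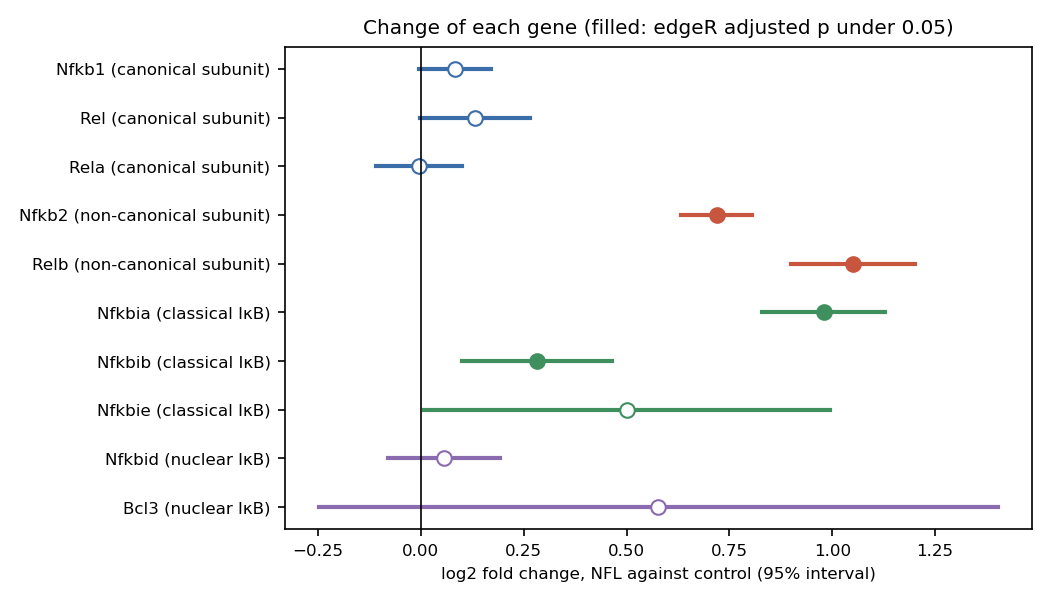
Log2 fold change of each gene (horizontal axis, NFL against control) with its 95% interval from the edgeR fit. Filled points passed the adjusted p-value of 0.05. The non-canonical subunits lie at 0.72 and 1.05 and the canonical subunits between -0.00 and 0.13.

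The classical IκB genes differed in size of change. Nfkbia (ENSMUSG00000021025.8) encodes IκBα, the inhibitor that is degraded first and resynthesised in the best-known feedback loop of the pathway. It had 18.8, 19.45 and 20.6 CPM in control and 38.3, 36.7 and 41.0 CPM in NFL libraries. The groups were far apart relative to their spread (SD 0.918 and 2.16 CPM), with a fold change of 1.97 (95% interval 1.78 to 2.19, edgeR adjusted p = 7.4e-15). Nfkbib (ENSMUSG00000030595.15), which encodes IκBβ, had 15.3, 16.2 and 16.5 CPM in control and 19.8, 19.65 and 18.9 CPM in NFL libraries. Its groups did not overlap, and the fold change was 1.22 (95% interval 1.07 to 1.38, edgeR adjusted p = 0.0470). This call was lost in 10 of 13 alternatives, including each of the 6 fits without 1 library (adjusted p = 0.0505 to 0.175). Exons of Ccer2 share 14.48% of the exonic bases of Nfkbib on the opposite strand, but Ccer2 had at most 1 count in any library, and Sirt2, which shares 1.94%, had a log2 fold change of -0.03. Nfkbie (ENSMUSG00000023947.8), which encodes IκBε, had 2.28, 2.01 and 1.92 CPM in control and 2.61, 2.91 and 3.285 CPM in NFL libraries. The NFL libraries were the higher ones, but with only 32 to 58 counts per library the fold change of 1.42 had a 95% interval of 1.006 to 1.99 and did not pass the test (edgeR adjusted p = 0.250).

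The nuclear IκB genes did not pass the test. Nfkbid (ENSMUSG00000036931.15) encodes IκBNS, which acts on NF-κB in the nucleus. It had 34.1, 33.7 and 34.1 CPM in control and 37.5, 35.9 and 32.6 CPM in NFL libraries. NFL replicate 3 was below all control libraries and the other NFL libraries were above them, so the groups overlapped (fold change 1.04, 95% interval 0.945 to 1.14, edgeR adjusted p = 0.735). Bcl3 (ENSMUSG00000053175.17), whose product binds p50 and p52 dimers, had 0.569, 0.816 and 0.655 CPM in control and 0.932, 1.16 and 0.906 CPM in NFL libraries. All NFL libraries were above the control libraries, yet with 13 to 20 counts per library the 95% interval of its fold change ran from 0.842 to 2.64 around 1.49 (edgeR adjusted p = 0.493). That interval holds both no change and a fold of more than 2, so the depth did not settle the size of the change. The antisense gene Gm16174 lies over Bcl3 without sharing exonic bases, and at 1.69 ± 0.917 CPM in control and 3.96 ± 1.34 CPM in NFL libraries (SD, n = 3 each) its level was above that of Bcl3 (log2 fold change 1.18, edgeR adjusted p = 0.0035, with overlapping libraries). Gm16175, which shares 6.51% of the exonic bases of Bcl3, had at most 1 count.

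Levels between genes were compared per length, as CPM per kilobase of the longest principal transcript in GENCODE. In control libraries the order was Nfkb2 (24.96 ± 1.23, SD, n = 3), Nfkb1 (21.7 ± 0.526), Rela (21.7 ± 0.0315), Nfkbid (16.6 ± 0.101), Nfkbia (12.4 ± 0.581), Relb (8.25 ± 0.137), Nfkbib (7.77 ± 0.296), Rel (4.38 ± 0.0331), Nfkbie (0.850 ± 0.0754) and Bcl3 (0.368 ± 0.0677). Nfkb1 and Rela did not differ beyond their spread, and the other neighbours in this order did not overlap between libraries. In NFL libraries Nfkb2 (40.95 ± 0.962) stood further above the rest, and Nfkbia (24.5 ± 1.37) moved above Nfkbid, Nfkb1 (23.0 ± 0.505) and Rela (21.6 ± 0.375). The NFL libraries of Nfkbia and Nfkb1 overlapped in range. Relb (17.1 ± 0.562) came to the level of Nfkbid (17.3 ± 1.23), from which it did not differ beyond the spread. The order depends on the annotated length. With the union of all exons, which is 12061 bases for Nfkb1 in place of 4117, the control level of Nfkb1 was 7.42 and Rela (19.2) led, ahead of Nfkb2 (17.1).

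The make-up of the subunit RNA is given as a description, with no test. Nfkb2 and Relb together made up 40.0%, 42.3% and 40.6% of the summed per-length level of the 5 subunits in control libraries and 53.8%, 53.8% and 54.3% in NFL libraries. The non-canonical pair thus went from the smaller to the larger part in each NFL library. Rela went from 26.8% ± 0.246 to 20.1% ± 0.394 (SD, n = 3 each), while its own level was 21.7 and 21.6 CPM per kilobase. Among the IκB genes, Nfkbia went from 32.6% ± 0.827 to 46.2% ± 2.48 of the sum, and Nfkbid, the largest share in control libraries, from 43.8% ± 0.956 to 32.7% ± 2.18. The sum of the 5 IκB genes per sum of the 5 subunits was 0.464, 0.463 and 0.481 in control and 0.506, 0.480 and 0.494 in NFL libraries. These ranges overlapped, although barely, since the highest control library lay just above the lowest NFL library. The means were 0.470 and 0.493 (difference 0.0236), and with the union of all exons as length they were 0.663 and 0.710 (difference 0.0477).

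**Figure D3:**
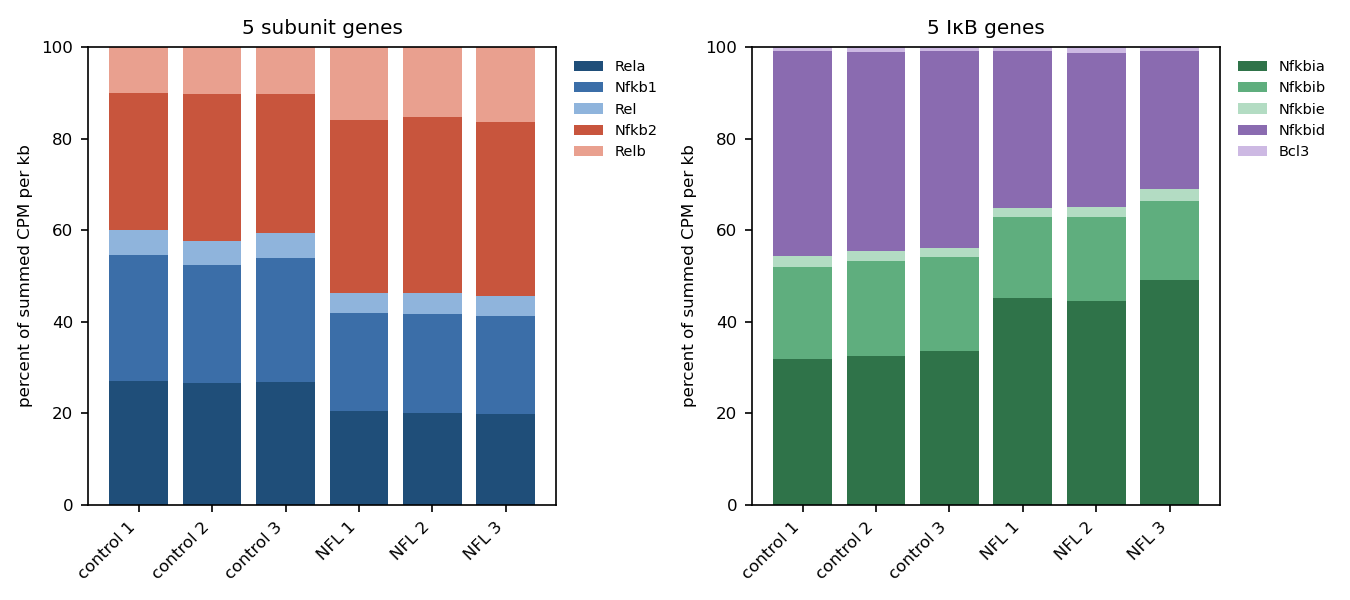
Share of each gene (vertical axis, percent of summed CPM per kilobase) in the 5 subunit genes (left) and the 5 IκB genes (right), 1 bar per library. Nfkb2 and Relb fill 40.0% to 42.3% of the subunit bars in control and 53.8% to 54.3% in NFL libraries, and Nfkbia fills 31.9% to 33.5% of the IκB bars in control and 44.6% to 49.1% in NFL libraries.

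Ratios of a pair of genes within each library do not depend on scaling. Relb per Rela was 0.373, 0.384 and 0.383 in control and 0.778, 0.757 and 0.833 in NFL libraries, a log2 difference of 1.05 (exact two-sided permutation p = 0.1). Nfkb2 per Nfkb1, the ratio of the precursors of p52 and p50, was 1.09, 1.25 and 1.12 in control and 1.78, 1.78 and 1.76 in NFL libraries, a log2 difference of 0.63 (exact permutation p = 0.1). Relb per Rel was 1.88 ± 0.0200 in control and 3.56 ± 0.172 in NFL libraries (SD, n = 3 each, log2 difference 0.92, exact permutation p = 0.1). Each ratio of a non-canonical to a canonical subunit was higher in every NFL library than in any control library. Nfkbia per Rela, the inhibitor relative to the subunit it retains, was 0.549, 0.567 and 0.601 in control and 1.11, 1.06 and 1.22 in NFL libraries (log2 difference 0.98, exact permutation p = 0.1). Nfkbia per Nfkbib was 1.601, 1.57 and 1.63 against 2.52, 2.44 and 2.84 (log2 difference 0.70, exact permutation p = 0.1). The groups did not overlap for any of the 5 ratios, and 0.1 is the smallest p-value that an exact permutation test of 3 against 3 libraries can give, also when adjusted over the 5 ratios. The pairs were chosen with earlier results of these data known and set Relb, Nfkb2 and Nfkbia over genes that changed less. The 5 ratios also share genes, so they restate the differences above and are not separate support for them.

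**Figure D4:**
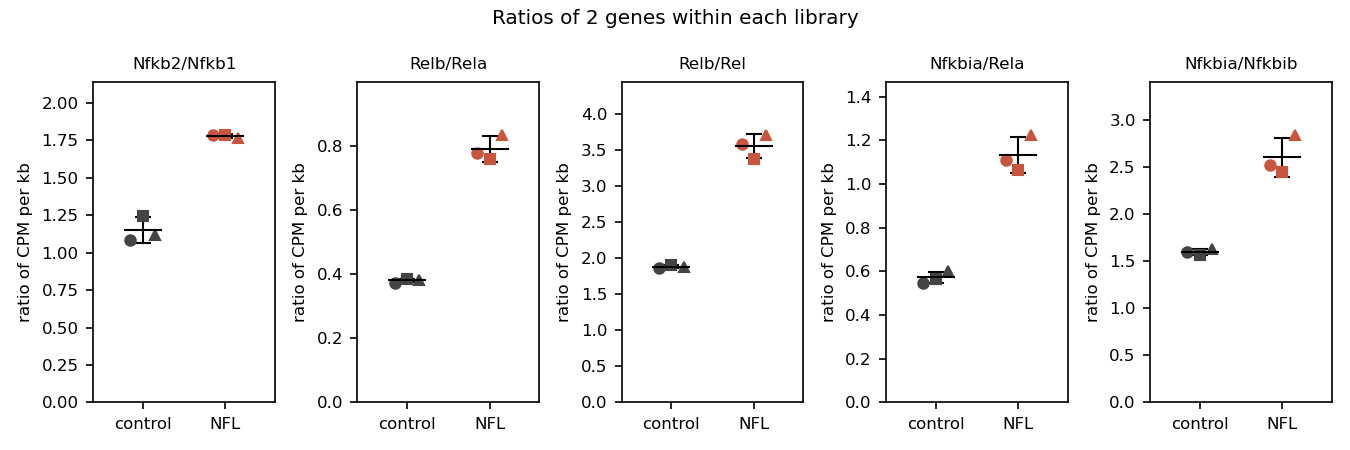
Per-length ratio of 2 genes within each library (vertical axes from 0) for the 5 pairs compared. Points are libraries (circle, square and triangle for replicates 1 to 3) and bars are mean and SD (n = 3). All NFL libraries lie above all control libraries, from 1.76 against 1.25 for Nfkb2/Nfkb1 to 0.757 against 0.384 for Relb/Rela.

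Replicates differed little. For genes above 10 CPM in control libraries the coefficient of variation within a group was 0.145% to 4.92% in control and 1.73% to 7.08% in NFL libraries, against 8.88% and 11.55% for Nfkbie and 18.4% and 14.1% for Bcl3. The lowest value, 0.145% for Rela at 941 to 1449 counts per control library, is below the noise of counting alone. An SD of 3 libraries can thus understate the spread. Within the NFL group, replicate 3 had the highest levels of Relb, Nfkbia and Nfkbie and the lowest of Nfkbid, Nfkbib, Rela and Bcl3. Over the 6 libraries Relb and Nfkbia had a Pearson correlation of log2 CPM of 0.997 and Relb and Nfkb2 of 0.991, whereas Rela had values of -0.45 to 0.77 with the other 9 genes. These values describe 6 libraries that share the difference between groups and carry no test.

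The genes most like the members were sought among 9134 other genes whose mean log2 CPM was 3 or more, by Pearson correlation of log2 CPM over the same 6 libraries. For Relb they were Serpina3g (0.998), Gfm1 (0.997) and Inf2 (0.997), and for Nfkb2 they included Junb (0.999) and Tnfrsf11b (0.998). Nfkbia was closest to Dis3 (0.996), Serpina3g (0.994) and Hspd1 (0.994), and Rel to Rasa1 (0.995), Hsp90aa1 (0.994) and Cct2 (0.993). These are the highest among 9134 genes, over 6 libraries that share the difference between groups, and they carry no test. Likeness in shape did not mean likeness in size: the log2 fold change was 0.65 for Serpina3g, 0.83 for Inf2 and 0.52 for Junb but 0.15 for Gfm1 and 0.12 for Dis3.

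Most genes of the machinery upstream of NF-κB, called the activating list below, did not pass the test. This list also holds genes that restrain the pathway, such as Birc3. Of 22 listed kinases, adaptors and ubiquitin ligases, 21 could be tested, of which 3 were higher, 1 was lower and 17 did not pass, with a median log2 fold change of 0.04 (19.0% called, beside 7.00% of all genes). Birc3, a ubiquitin ligase that restrains the non-canonical kinase NIK, rose from 18.8 ± 0.346 to 26.4 ± 1.30 CPM (SD, n = 3 each, log2 fold change 0.49, edgeR adjusted p = 2.3e-05). Traf2, its adaptor, rose with a log2 fold change of 0.34 (edgeR adjusted p = 3.2e-04), and Map3k7, which encodes the kinase TAK1, with 0.16 (edgeR adjusted p = 0.0063). Prkcq, which encodes the protein kinase C that links the T-cell receptor to NF-κB, was lower, with a log2 fold change of -0.14 (edgeR adjusted p = 0.0119). Without NFL replicate 2, 2 genes of the list passed in place of 4. The other genes of the non-canonical arm did not pass. Map3k14, which encodes NIK, had 16.0 ± 0.931 CPM in control and 16.6 ± 1.32 CPM in NFL libraries (SD, n = 3 each), and Chuk, which encodes the kinase IKKα, had 149.9 ± 4.26 and 158.0 ± 3.02 CPM. Their edgeR adjusted p-values were 0.798 and 0.254. Log2 fold changes were 0.10 for Traf3 and 0.04 for Birc2 (edgeR adjusted p = 0.174 and 0.780).

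Among 14 genes that degrade IκB proteins or damp the pathway, 13 passed the filter and 3 rose while 0 fell. Their median log2 fold change was 0.07, and 23.1% were called, beside 7.00% of all genes. Tnip1, which encodes a ubiquitin-binding partner of A20, rose from 62.2 ± 2.62 to 97.6 ± 1.16 CPM (SD, n = 3 each, log2 fold change 0.65, edgeR adjusted p = 9.7e-16). Otulin and Cyld, which encode deubiquitinases, rose with log2 fold changes of 0.21 and 0.14 (edgeR adjusted p = 0.0018 and 0.0300). In 5 of 13 alternatives 2 genes of this list passed in place of 3, among them the fits without control replicate 1, NFL replicate 2 or NFL replicate 3. Tank, which encodes an adaptor, had a log2 fold change of 0.09 (edgeR adjusted p = 0.308). Tnfaip3, the gene of A20 itself and a textbook NF-κB target, was the gene that could not be tested, with 0 to 2 counts per library. Nfkbiz, which encodes a further nuclear IκB, had 17.6 ± 0.784 CPM in control and 18.9 ± 0.888 CPM in NFL libraries (SD, n = 3 each, edgeR adjusted p = 0.606), so none of the 3 genes of nuclear IκB proteins measured here passed the test.

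Of 38 textbook targets, 28 passed the filter on low counts. In NFL libraries 13 were higher, 0 were lower and 15 did not pass, with a median log2 fold change of 0.17. The share called in this list was 46.4%, beside 7.00% of all genes, and 11 to 14 genes passed over the 13 alternatives. Like the lists above, this one was chosen with earlier results of these data known, so the share is a description and carries no test. The lowest adjusted p-values were those of Lta, which encodes lymphotoxin α, Tnfrsf9, which encodes the co-stimulatory receptor 4-1BB, the chemokine gene Cxcl10 and the AP-1 gene Junb, with log2 fold changes of 0.68, 0.33, 1.04 and 0.52 (edgeR adjusted p = 2.9e-24, 2.1e-12, 1.2e-11 and 4.5e-08). Ccr7, named after its values were seen as the target with the largest log2 fold change, had 1.14 (edgeR adjusted p = 0.0045). The highest adjusted p-values were those of Sod2, Cflar, Cd80 and Xiap, also named after their values were seen. Their log2 fold changes were 0.00, -0.01, 0.09 and -0.01. In all, 21 of the 28 targets had a positive log2 fold change and 7 a negative one. Relb (1.05) and Nfkbia (0.98) had larger log2 fold changes than the highest value in the activating list (0.49) and in the degradation and feedback list (0.65).

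**Figure D5:**
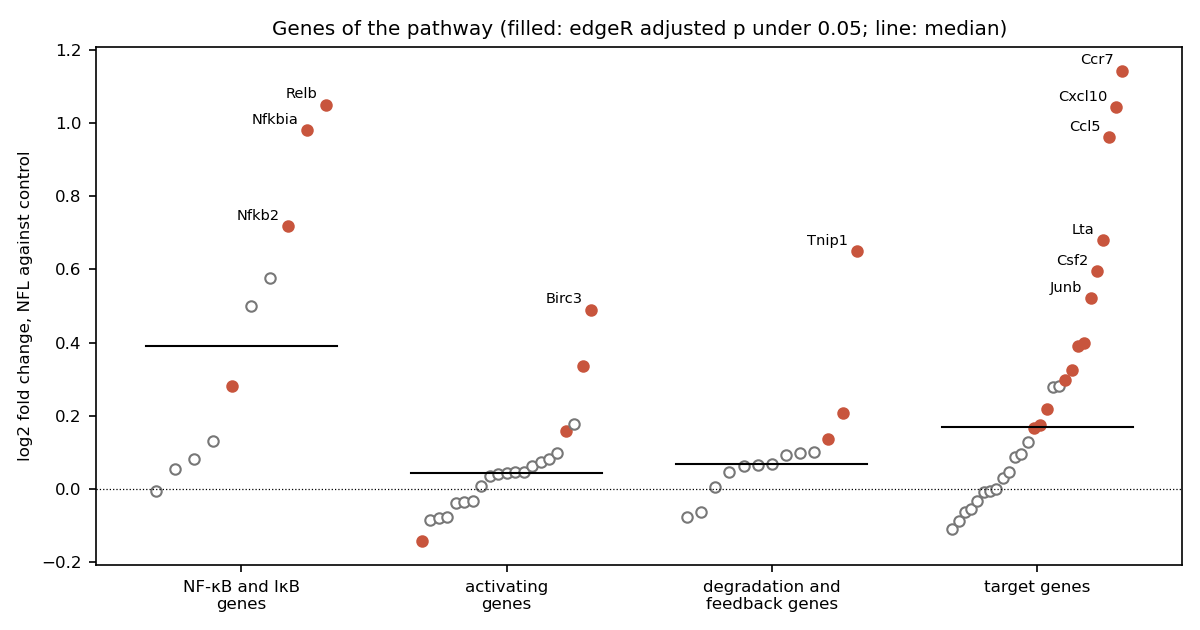
Log2 fold change (vertical axis, NFL against control) of the 10 NF-κB and IκB genes, 21 genes of the activating list, 13 degradation and feedback genes and 28 target genes that could be tested. The activating list also holds restraining genes such as Birc3. Points are genes, filled where the edgeR adjusted p-value was under 0.05, and lines are medians (0.39, 0.04, 0.07 and 0.17).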

How the data were processed

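RNA was sequenced from poly(A)-selected libraries of 3 control and 3 NFL cultures. For 55401 Ensembl identifiers the authors deposited raw counts of reads, which are whole numbers with no normalization and no pooling of libraries. The processing notes of the submitters name GRCm39, R 4.2.1 and limma 3.54.2 with no role, while aligner, counter and strand setting are not given in the sources used here. Columns were assigned by the letter and number of the sample titles, and 0 columns were left unassigned.

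Symbols were found for 55141 identifiers. Transcript lengths and overlaps came from GENCODE release M21 (GRCm38), since all 10 identifiers were identical there with their version, and promoter windows from RefSeq (GRCm38.p6). Their coordinates are those of that build, not of the build the notes name. Read counts were analysed in R 4.3.3 with edgeR 4.0.16. Genes kept by filterByExpr (minimum count 10, minimum total count 15) were scaled by TMM and tested by glmQLFTest with Benjamini-Hochberg adjustment over all 14082 genes and a threshold of 0.05. Standard errors are the log2 fold change divided by the root of F, and intervals are 95%. Marker levels used library totals alone. The members, gene lists and ratios were chosen with earlier results of these data known.

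Named genes were the 10 members, the 4 lowest adjusted p-values of each list, the non-canonical genes of the first list, Tnfaip3, Nfkbiz, overlapping genes and the 3 most similar genes for Relb, Nfkb2, Nfkbia and Rel. Of these, 1 similar gene is not reported here. Ccr7 and the 4 targets with the highest adjusted p-values were named after their values were seen. Alternatives were other scaling, filters, DESeq2 1.42.0, limma-voom (limma 3.58.1), a replicate block and each library left out. Exon union as the gene length was added after seeing the data. Figures were drawn with matplotlib 3.10.9.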

Additional observations from a re-analysis of the deposited data

How the results depend on the processing

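Of the 10 genes, Relb, Nfkb2 and Nfkbia passed the threshold in all 13 alternatives, with log2 fold changes of 1.025 to 1.075, 0.69 to 0.76 and 0.93 to 1.02. Nfkbib kept its direction (0.25 to 0.31) but passed in 3 of 13, with adjusted p-values of 0.0473 to 0.175. The 6 genes that did not pass did so in no alternative that gave an adjusted p-value, and DESeq2 gave none for Bcl3 and Nfkbie. Rela, whose log2 fold change was -0.00458, was -0.0185 with library size alone and, with 1 library left out, ranged from -0.00944 (without NFL replicate 2) to 0.0104 (without NFL replicate 3). The count of members passing was 3 or 4 in every alternative. With each library left out, 508 to 966 of all genes passed in place of 986 (508 without NFL replicate 3, 616 without NFL replicate 2), and 2 to 4 genes of the activating list did. With library size alone, 372 genes were higher and 600 lower, in place of 489 and 497. Deviations of samples with the same replicate number had r = -0.0123, 0.0171 and 0.0472, and those of other pairs had r from -0.0524 to 0.0314. With 3 samples per group this cannot exclude pairing, and the main fit used no pairing. With the replicate number as a block 1049 genes and 3 members passed, and Nfkbib was the member lost (adjusted p = 0.0540). With the exon union as length, the IκB sum per subunit sum differed by 0.0477 in place of 0.0236. The κB share of genes was 5.14%, and 53.5% for the looser pattern. Bcl3 and Nfkbie, at 13 to 58 counts per library, were limited by depth.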
